A study of Mus musculus with 7 samples.

Results

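Accessible chromatin was described at 7 genes of lymphocyte homing, adhesion and egress: Cxcr4, Cxcr5, Ccr7, S1pr1, Itga4, Cd44 and Klf2. The members were all ATAC-seq regions overlapping one of these gene bodies or 20 kb on either side (mm10, GENCODE M21). A region is a stretch covered by overlapping peaks of the 7 deposited peak lists, and 125 of 145247 such regions belonged to the 7 genes. ATAC-seq cuts open chromatin with the Tn5 transposase, so a peak marks DNA that the enzyme could reach. Each group was 1 library of sorted B cell progenitors from adult mice, and no library had a replicate. WT pre-proB, WT proB and WT preB cells carried the genotype Ergfl/fl, a floxed Erg allele with no Cre. Erg KO pre-proB cells were Rag1CreT/+;Ergdelta/delta, in which Cre expressed from the common lymphoid progenitor onwards deletes Erg, a transcription factor of the ETS family. Erg Rescue pre-proB, proB and preB cells were Rag1CreT/+;Ergdelta/delta;IgHVH10tar, which adds a productively rearranged immunoglobulin heavy chain to the same deletion. All 7 libraries therefore derived from mice with the floxed or deleted allele, and the heavy chain was present only in the Rescue libraries. Stage was defined by surface sorting (B220, CD43, CD24 and IgM among others), so cells of other types that pass a gate could be present.

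Homing receptors steer leukocytes along gradients of chemokines and lipids. CXCR4 binds CXCL12 and retains B cell progenitors in the marrow niche, whereas CXCR5 and CCR7 guide mature B cells to follicles and to T cell zones. S1PR1 senses sphingosine-1-phosphate and drives egress into blood. Integrin alpha 4, encoded by Itga4, pairs with a beta chain to bind VCAM1 on stroma, and CD44 binds hyaluronan in the matrix. KLF2 is a transcription factor known to control S1pr1 and other trafficking genes in lymphocytes.

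For each library the level of a region is the highest fold enrichment of its peaks, that is, the fragment pileup at the summit plus 1 over the library's background plus 1. Regions without a peak in a library have no deposited level, and were set to the lowest fold enrichment of that list (2.32 to 2.63) for ratios only, so such a ratio is given as "at least". A region was called higher or lower where the ratio of 2 levels, divided by the median ratio over regions with a peak in both lists, reached 2. With 1 library a group there is no test, no p-value and no estimate of the spread between mice, so a call is a description of 2 libraries. Summit pileups are given with exact 95% Poisson intervals, which cover counting error only, since PCR copies carried no molecular identifiers. In bulk chromatin, fewer cells open at a site and less opening per cell cannot be told apart. The peak lists held 76465 to 105649 peaks, of which 78 to 96 fell in the 7 gene windows.

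The titles and the source names of the 3 Rescue libraries name different stages, and the titles were followed here. By title, the Rescue pre-proB library had 0 higher and 2 lower member regions against WT pre-proB. By source name it had 34 higher and 11 lower. Promoter peaks of 5 marker lists of 8 genes each were counted as a check of the sorted stage. B lineage markers had a promoter peak at 7 genes in the WT, 4 in the Erg KO and 5 in the Rescue pre-proB library, and at 8 in each of the 4 proB and preB libraries. The summed fold enrichment of that list was 127, 102 and 103 in the 3 pre-proB libraries and 369 to 465 in the others. Plasmacytoid dendritic cell markers had 8 promoter peaks in each pre-proB library and 7 in each later one, with summed levels of 385 to 455 against 192 to 311. T cell markers had promoter peaks at 5 to 7 genes in pre-proB, 5 in proB and 2 to 3 in preB libraries, with Cd3e at none in all 7. Natural killer and innate lymphoid markers had 6 in pre-proB and proB and 4 to 5 in preB libraries, with Ncr1 at none in all 7. Myeloid markers had 3 to 5, with Elane and S100a8 at none in all 7. These counts hide differences in level. In WT proB against WT pre-proB, 2 T cell, 3 natural killer and innate lymphoid and 1 myeloid marker promoters were lower. The same lists had 1, 1 and 0 higher. Among the lower ones, Klrd1 stood at 77.9 in WT pre-proB and 28.6 in WT proB, Klrb1c at 39.5 and 5.54, and Itgam at 27.9 and 4.06. Cd8a stood at 19.2 in WT pre-proB, with no peak in WT proB. At Erg itself, the gene body held 30 peaks in the Erg KO and 32 in the WT pre-proB library. The deletion takes out exon 4, so this count does not check it.

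The following sequences were read from the mm10 genome, plus strand, in windows of 201 bases centred on the summit of 8 member regions outside annotated exons. They are shown because the descriptions below turn on them. The first pair had a peak in WT but not in Erg KO pre-proB cells. The others were among the regions with the largest ratios between WT stages, and not all such regions are shown. Capitals mark any match to a motif that was searched, on either strand.
Cxcr5, 3.71 kb upstream (chr9:44565484-44565684): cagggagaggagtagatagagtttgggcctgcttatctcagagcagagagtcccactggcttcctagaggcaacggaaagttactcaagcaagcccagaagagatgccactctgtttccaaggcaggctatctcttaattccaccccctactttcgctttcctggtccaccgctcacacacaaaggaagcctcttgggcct
Klf2, 7.93 kb upstream (chr8:72311007-72311207): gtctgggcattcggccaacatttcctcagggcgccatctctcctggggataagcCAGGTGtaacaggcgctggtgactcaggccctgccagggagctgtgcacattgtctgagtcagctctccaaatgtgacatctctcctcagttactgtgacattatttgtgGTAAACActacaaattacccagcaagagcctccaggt
Cd44, intron 1 (chr2:102896274-102896474): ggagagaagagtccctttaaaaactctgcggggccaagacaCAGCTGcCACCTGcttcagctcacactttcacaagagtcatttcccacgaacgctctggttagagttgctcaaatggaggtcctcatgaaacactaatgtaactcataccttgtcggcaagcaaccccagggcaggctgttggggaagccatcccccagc
Cd44, beyond the 3′ end (chr2:102795152-102795352): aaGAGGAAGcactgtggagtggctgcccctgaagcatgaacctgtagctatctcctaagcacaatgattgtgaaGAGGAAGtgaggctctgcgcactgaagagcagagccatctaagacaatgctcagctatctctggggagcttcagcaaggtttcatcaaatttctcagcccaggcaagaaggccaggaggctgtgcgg
Ccr7, 16.0 kb upstream (chr11:99170981-99171181): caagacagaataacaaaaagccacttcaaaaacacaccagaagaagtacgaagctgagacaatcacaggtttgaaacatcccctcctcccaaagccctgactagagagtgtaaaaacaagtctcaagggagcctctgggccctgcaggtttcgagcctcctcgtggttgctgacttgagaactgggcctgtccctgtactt
Ccr7, 11.3 kb upstream (chr11:99166257-99166457): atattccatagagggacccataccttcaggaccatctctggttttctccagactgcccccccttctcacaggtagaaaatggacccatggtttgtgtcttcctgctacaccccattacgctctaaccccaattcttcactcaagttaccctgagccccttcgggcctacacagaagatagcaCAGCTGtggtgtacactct
S1pr1, 12.8 kb upstream (chr3:115727728-115727928): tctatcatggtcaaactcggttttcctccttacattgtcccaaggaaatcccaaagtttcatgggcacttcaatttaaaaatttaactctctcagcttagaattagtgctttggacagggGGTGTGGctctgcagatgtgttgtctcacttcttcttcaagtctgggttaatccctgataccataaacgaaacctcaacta
S1pr1, beyond the 3′ end (chr3:115694268-115694468): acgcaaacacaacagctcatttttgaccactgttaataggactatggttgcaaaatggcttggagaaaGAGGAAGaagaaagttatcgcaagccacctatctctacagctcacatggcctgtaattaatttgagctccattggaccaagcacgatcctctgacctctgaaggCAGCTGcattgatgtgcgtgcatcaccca
The motifs searched were ETS (ACCGGAA or ACAGGAA), EBF1 (CCCNNGGGA), E protein (CAGCTG or CAGGTG), RUNX (TGTGGTT), FOXO (GTAAACA), PU.1 (GAGGAAG) and KLF (CCACACC or CCCCGCCC). Of the 8 windows, the Cxcr5 window and the Ccr7 window at 16.0 kb held none. In 301 bases around the summit, an ETS match stood in 18.4% of the 125 member regions and 17.0% of all 145247 regions. The E protein shares were 44.8% and 44.2%, the EBF1 shares 8.0% and 7.6%, the RUNX shares 11.2% and 13.6%, and the PU.1 shares 23.2% and 20.9%. FOXO matches stood in 5.6% of member and 3.96% of all regions, and KLF matches in 9.6% and 13.5%. A match describes letters in a window and not a bound site.

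In mm10, Cxcr4 (ENSMUSG00000045382) lies at chr1:128588199-128592293, Cxcr5 (ENSMUSG00000047880) at chr9:44511787-44561877, Ccr7 (ENSMUSG00000037944) at chr11:99144196-99155077, and S1pr1 (ENSMUSG00000045092) at chr3:115710433-115715072. Itga4 (ENSMUSG00000027009) lies at chr2:79255426-79333123, Cd44 (ENSMUSG00000005087) at chr2:102811141-102901665, and Klf2 (ENSMUSG00000055148) at chr8:72319033-72321656. Itga4 and Klf2 are on the plus strand and the other 5 on the minus strand. The 125 regions divided into 25 at Cxcr5, 21 at Cd44, 19 at Cxcr4, 19 at Ccr7, 16 at S1pr1, 16 at Itga4 and 9 at Klf2. Of these, 10 overlapped the 1 kb on either side of an annotated start site of the member. A further 40 had their summit upstream of the gene, 39 downstream, 30 in an intron, 4 in an untranslated region and 2 in a coding exon. In 12 regions the summit lay inside another gene, or the region reached another coding gene's promoter, and Bcl9l downstream of Cxcr5 and Cerkl beyond Itga4 were the main ones. A peak was present in all 7 libraries at 51 regions, 40.8% of the members against 32.0% of all regions. The 4 proB and preB libraries shared 14 regions that no pre-proB library had, 11.2% against 5.19% of all regions. The 3 pre-proB libraries shared 10 that no later library had, 8.0% against 11.5%. Peaks seen in 1 library only made up 17 regions, 13.6% against 17.8%.

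**Figure D1:**
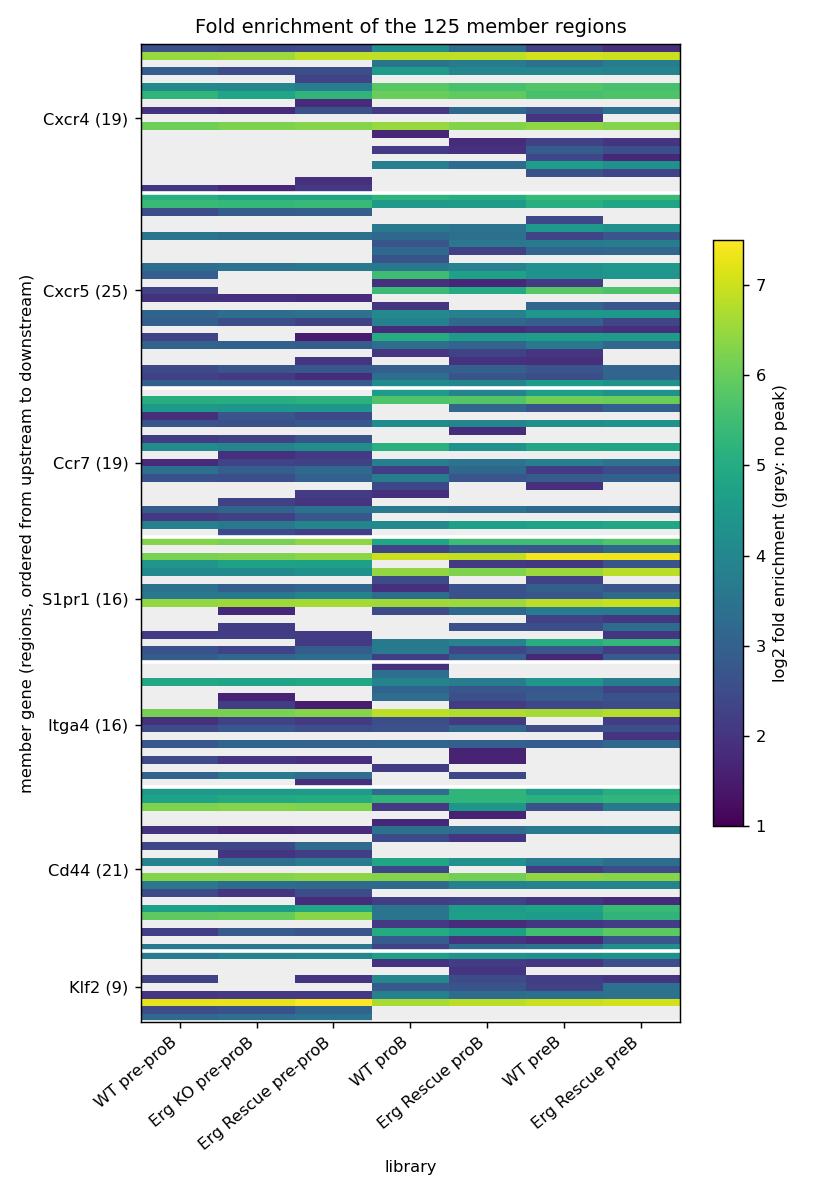
Rows are the 125 member regions, grouped by gene and ordered from upstream to downstream, columns are the 7 libraries, and colour is log2 fold enrichment with grey for no peak. The 3 pre-proB columns resemble each other, 14 rows are filled only in the 4 proB and preB columns, and 51 rows are filled throughout.

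Every member had a promoter peak in all 7 libraries. In each pre-proB library the Klf2 promoter stood highest and the Cxcr5 promoter lowest. The Klf2 promoter level was 155, 101 and 126 in WT pre-proB, proB and preB cells, 155 in the Erg KO, and 179, 114 and 132 across the Rescue stages. It was the only member promoter whose pre-proB levels all exceeded those of the later stages. The Itga4 promoter level was 71.5, 115 and 99.5 in WT pre-proB, proB and preB, 73.3 in Erg KO, and 79.5, 105 and 109 in the Rescue series. The Cxcr4 promoter level ranged from 67.3 in WT pre-proB to 90.6 in WT proB, with 74.4 in Erg KO and 77.5 to 78.1 in the Rescue libraries. The Cd44 promoter level ranged from 27.3 in WT pre-proB to 39.0 in Rescue preB, with 30.6 in Erg KO. These 4 promoters varied by less than 2 times between libraries, whereas those of Cxcr5, S1pr1 and Ccr7 varied more.

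**Figure D2:**
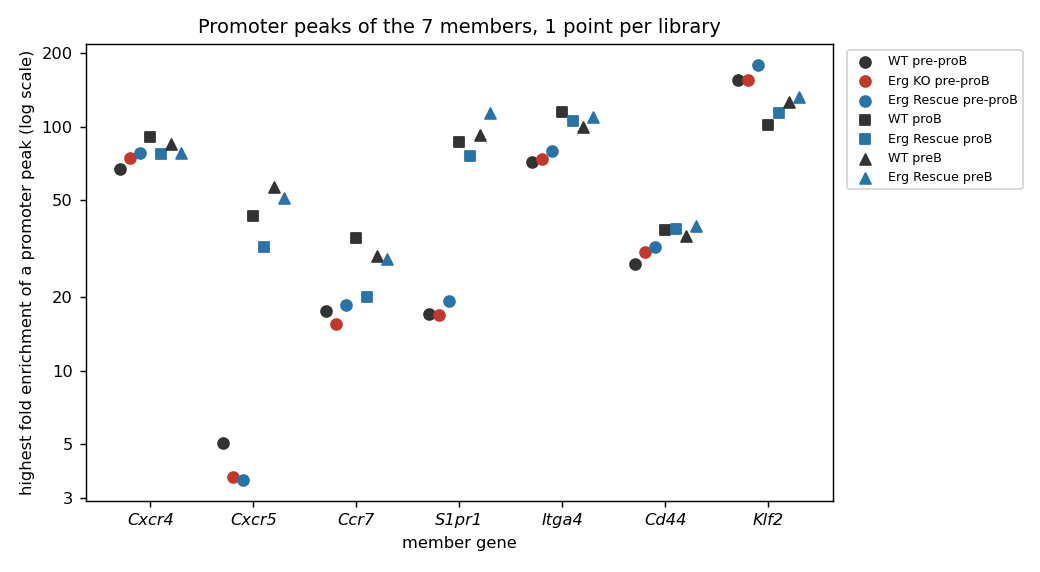
The y axis (log scale) is the highest fold enrichment of a promoter peak for each of the 7 members, with 1 point per library, colour for genotype and shape for stage. S1pr1 and Cxcr5 show the widest gap between the 3 pre-proB points (16.9 to 19.3 and 3.57 to 5.04) and the 4 later ones (76.0 to 114 and 32.1 to 56.5).

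The first comparison set Erg KO against WT pre-proB cells at these loci. The libraries differ in both Cre and the deletion of Erg, which cannot be told apart here. Of 79 member regions with a peak in either library, 1 was higher and 4 were lower in Erg KO than in WT pre-proB cells. Over all regions, the same rule called 0.91% higher and 1.7% lower. The 67 member regions with a peak in both libraries all lay between ratios of 0.673 and 1.72, and none was called. Of the 12 regions with a peak in only 1 of the libraries, 8 were in Erg KO and 4 in WT, and all 4 of the latter were those called lower. These comprised 3 of 15 tested Cxcr5 regions and 1 of 6 tested Klf2 regions.

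Cxcr5 has 3 annotated start sites on the minus strand of chromosome 9, and the peak of proB and preB cells lay at the innermost one (position 44526421). This promoter region (chr9:44526117-44527089) had fold enrichments of 5.04, 43.2 and 56.5 across the WT stages (pre-proB, proB, preB). It had no peak in Erg KO cells, and none, 32.1 and 51.0 across the Rescue stages. The WT pre-proB summit rested on 25 fragments (95% interval 16.2 to 36.9), whereas the lowest pileup called in Erg KO was 12. The ratio was at least 2.2 times lower in Erg KO and at least 2.42 times lower in Rescue pre-proB than in WT pre-proB. In the 3 pre-proB libraries a small peak stood at the outermost start site (position 44561877), with levels of 3.88 in WT, 3.66 in Erg KO and 3.57 in Rescue, and no later library had one there. The promoter peak counted for Cxcr5 in Erg KO and Rescue pre-proB was therefore at another start site than in the other 5 libraries.

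A second Cxcr5 region, 3.71 kb upstream of the outermost start (chr9:44565267-44566036, intergenic), had levels of 7.75, 44.3 and 19.9 across the WT stages. It had no peak in either Erg-deficient pre-proB library, and stood at 26.5 and 20.8 in Rescue proB and preB. Its WT pre-proB summit held 39 fragments (27.7 to 53.3), and the level was at least 3.38 times lower in Erg KO and at least 3.72 times lower in Rescue pre-proB. It was the most different member region in both comparisons. The third lay in the 3′ untranslated region, 14.2 kb downstream of the inner start (chr9:44511866-44512547). It stood at 5.04, 32.3 and 25.0 across the WT stages, had no peak in the Erg KO, and stood at 2.86, 22.5 and 24.1 across the Rescue stages. Its Rescue pre-proB ratio of 0.509 was just short of a call. All 3 regions were thus far lower in every pre-proB library than in every later one, and the differences between pre-proB libraries were among levels below 8. Regions with a peak in WT pre-proB and all 4 later libraries but in neither Erg-deficient pre-proB library numbered 2 among the members, both at Cxcr5, 1.6% against 1.07% of all regions.

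The other 12 Cxcr5 regions tested in the same comparison were not called. The promoter peaks of the B lineage genes Cd79a and Vpreb1, which encode parts of the B cell receptor and its precursor, were also lower in both Erg-deficient pre-proB libraries, with Cd79a at 11.4 in WT, no peak in Erg KO and 3.57 in Rescue pre-proB, and Vpreb1 at 8.53, none and none. These were the only 2 of the 8 listed B lineage markers called, and Ebf1 stood at 21.5 in WT and 24.4 in Erg KO, Blnk at 48.1 and 49.7, and Cd79b at 8.34 and 6.6. Of the T cell marker promoters, Thy1 was called lower in Erg KO, falling to 8.25 from a WT level of 22.3. Cd4 was called higher, with a peak of 5.86 where WT had none (at least 2.3 times). Neither was called in Rescue pre-proB, where they stood at 18.4 and 3.22. No natural killer and innate lymphoid, plasmacytoid dendritic or myeloid marker was called in Erg KO. Whether the share of more mature B lineage cells, or of other cells, in the sort contributed to the Cxcr5 values was not tested. Calls at member regions were also recomputed with each list reduced to 76465 peaks or to peaks with a −log10 q of at least 10. All 4 lower calls in Erg KO, the 1 higher call at Ccr7 described next and both lower calls in Rescue pre-proB were then lost. Both settings remove weak peaks and raise the lowest fold enrichment that stands in for an absent peak.

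**Figure D3:**
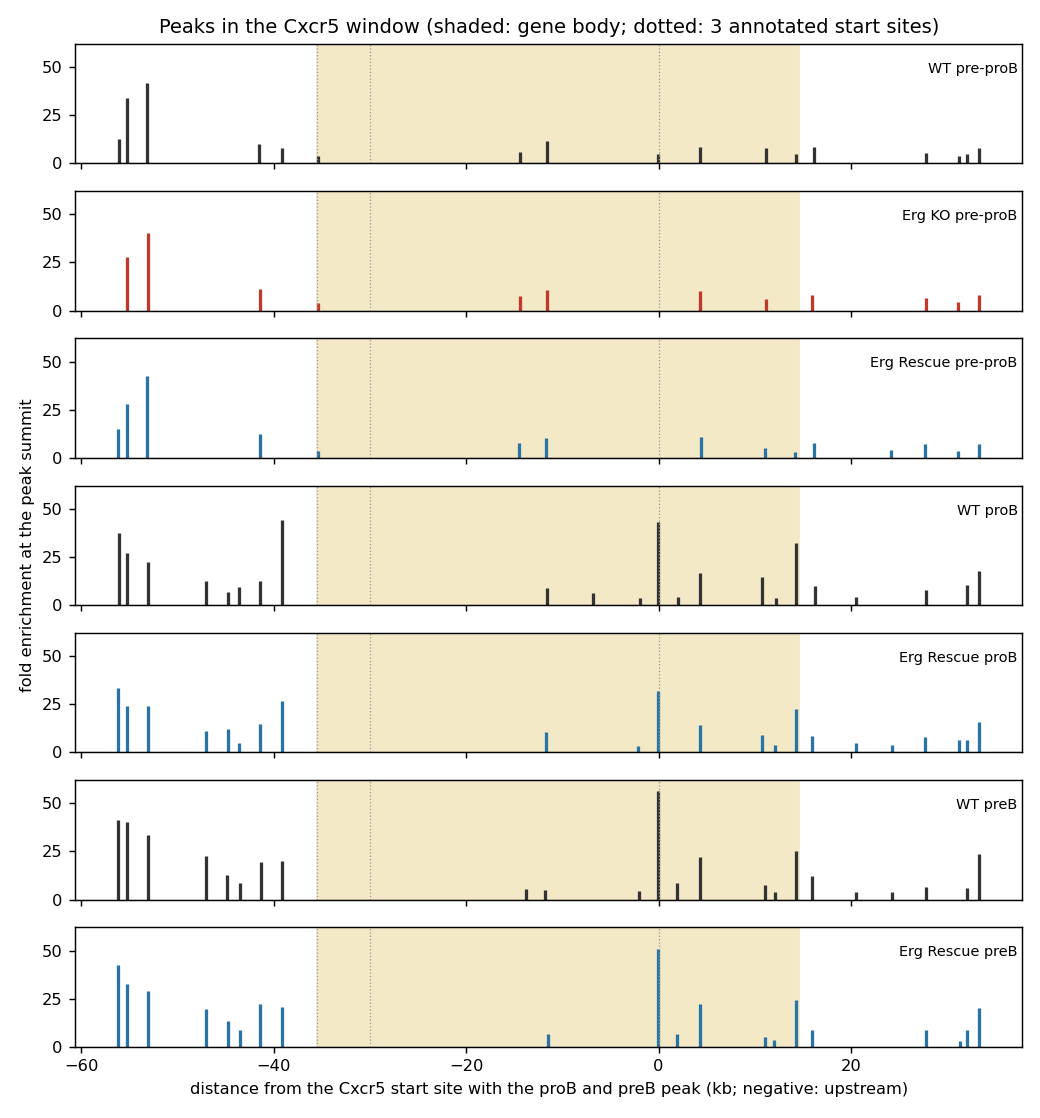
Each panel is 1 library, the x axis is distance from the inner Cxcr5 start site in kb along the gene's direction, and bar height is the fold enrichment of each peak summit, with the gene body shaded and 3 start sites dotted. The bars at the inner start, at the 3′ end and upstream of the outer start reach 19.9 to 56.5 in the 4 later libraries, are 5.04 to 7.75 in WT pre-proB and missing in Erg KO pre-proB.

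At Klf2, the region called lower in Erg KO lay 7.93 kb upstream (chr8:72310318-72311441, intergenic). Its levels were 5.04, 16.1 and 4.6 across the WT stages and 3.93, 5.57 and 3.92 across the Rescue stages, with no peak in the Erg KO. Only the WT proB library stood apart, and it was 2.91 times above Rescue proB and 3.63 times above WT preB. The one region higher in Erg KO lay 31.0 kb downstream of the Ccr7 start, at the edge of the window (chr11:99123908-99124264), with levels of 5.5 in Erg KO and 4.65 in Rescue pre-proB and no peak in the other 5 libraries. Its ratio of at least 2.1 rested on 29 fragments (19.4 to 41.6). Cxcr4, S1pr1, Itga4 and Cd44 had no region called in either direction between Erg KO and WT pre-proB cells.

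Rescue pre-proB cells, which add the heavy chain to the deletion, were compared with the same WT pre-proB library. Of 84 member regions, 0 were higher and 2 lower, both of them the Cxcr5 regions above and both lost under the same list settings, against 0.784% higher and 2.14% lower over all regions. The 69 regions with a peak in both lay between ratios of 0.509 and 1.59. At Cxcr5 the Rescue and Erg KO pre-proB levels stood side by side, absent at the inner promoter and at 3.71 kb upstream in both.

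**Figure D4:**
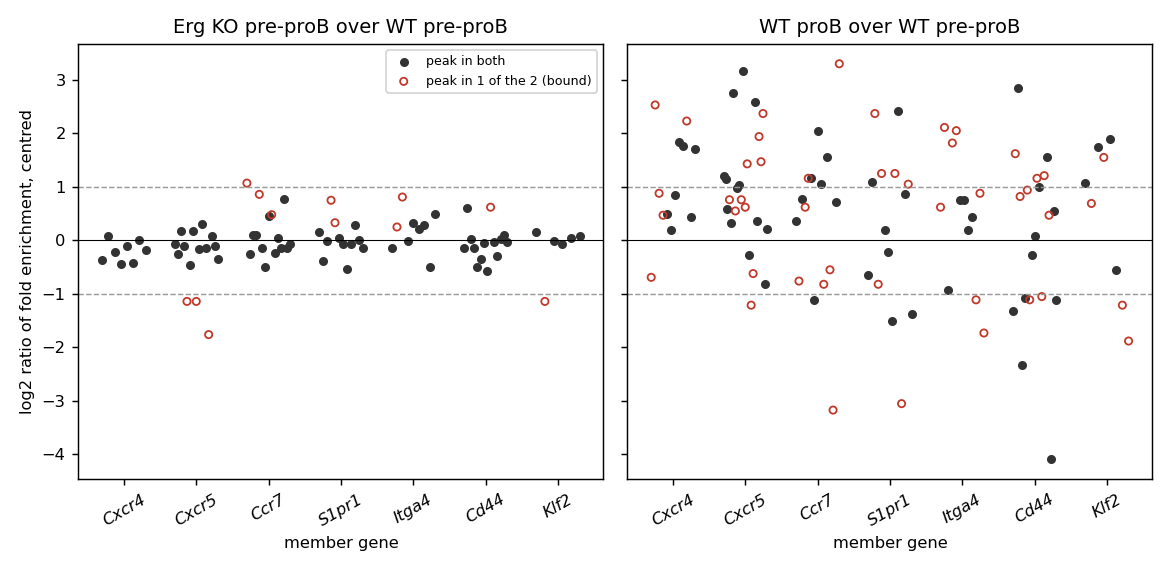
The y axis is the centred log2 ratio of fold enrichment for each member region with a peak in either library, Erg KO over WT pre-proB on the left and WT proB over WT pre-proB on the right, with dashed lines at the 2-fold call. On the left 5 points lie beyond the lines, 3 of them at Cxcr5, and all are open circles with a peak in only 1 library, whereas on the right 56 of 103 points lie beyond.

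The passage from pre-proB to proB was by far the larger contrast at these genes. In WT cells, 39 of 103 member regions were higher in proB than in pre-proB (37.9%) and 17 were lower (16.5%), beside 18.6% higher and 24.2% lower over all regions. The median log2 ratio of the members was 0.75, against -0.04 over all regions. The excess of higher over lower regions depended on the window. It was relatively smaller with the gene body alone (12 higher and 9 lower) and with flanks of 50 kb (53 and 40). Higher regions numbered 10 of 23 at Cxcr5, 6 of 15 at Ccr7, 6 of 14 at S1pr1, 5 of 12 at Cxcr4, 5 of 19 at Cd44, 4 of 8 at Klf2 and 3 of 12 at Itga4. Lower regions numbered 7 at Cd44, 3 at S1pr1, 2 each at Ccr7, Itga4 and Klf2, 1 at Cxcr5 and 0 at Cxcr4. Of the 39 higher regions, 20 had a peak in the WT, 18 in the Erg KO and 19 in the Rescue pre-proB library, beside 39.9%, 35.5% and 37.3% of all 22096 regions called the same way. A peak was present at 36 of them in WT preB, 34 in Rescue proB and 34 in Rescue preB, beside 77.5%, 76.9% and 74.9%. Of the 17 lower regions, all 17 had a peak in the Erg KO and in the Rescue pre-proB library, as did 99.7% of all 28663 such regions in each. They had a peak at 8 in WT proB, 10 in WT preB, 12 in Rescue proB and 10 in Rescue preB, beside 31.2%, 28.3%, 61.4% and 39.0%.

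Among the chemokine receptors, the Cxcr4 promoter was within 2 times between stages, and the difference lay at distal regions. A region 10.9 kb upstream had levels of 16.7, 56.5 and 53.5 across the WT stages, 16.1 in the Erg KO, and 13.4, 49.0 and 48.9 across the Rescue stages. A region 8.79 kb downstream had no peak in any pre-proB library and levels of 13.8 in WT proB, 24.5 in WT preB, 9.58 in Rescue proB and 19.4 in Rescue preB. By contrast, the region 16.0 kb upstream was high in every library, from 89.9 in WT pre-proB to 133 in WT preB. These 3 regions were chosen after their values were seen. The region 19.7 kb upstream (chr1:128611726-128612259) was highest in WT proB at 18.6, with 6.01, 5.5 and 5.72 in the WT, Erg KO and Rescue pre-proB libraries, 9.8 in Rescue proB, and 4.82 and 3.71 in WT and Rescue preB, and was 4.02 times lower in WT preB than in WT proB.

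The Cxcr5 inner promoter was 9.0 times higher in WT proB than in WT pre-proB, the largest ratio among the promoters. At Ccr7, the promoter level was 17.6, 34.9 and 29.4 in WT pre-proB, proB and preB, 15.6 in Erg KO, and 18.6, 20 and 28.7 in the Rescue series, and the WT proB level was 2.08 times that of WT pre-proB. Centred on promoters alone, that ratio was 1.98 and was not called. The ratio of Rescue to WT proB was 0.57 and not called. Upstream of Ccr7, neighbouring regions went opposite ways. The region at 16.0 kb (chr11:99170427-99171394) had no peak in the 3 pre-proB libraries and stood at 23.6 in WT proB, 24.5 in WT preB, 15.1 in Rescue proB and 20.4 in Rescue preB, at least 9.85 times higher in WT proB. The region at 11.3 kb (chr11:99165966-99166667) stood at 22.7, 21.3 and 21.8 in the WT, Erg KO and Rescue pre-proB libraries, and had no peak in WT proB, at least 9.0 times lower. It was present again at 6.36 in WT preB, and at 8.91 and 8.05 in Rescue proB and preB. Between them, at 13.2 kb, a region was open throughout, from 33.3 in WT and Erg KO pre-proB to 68.2 in WT preB. That region was chosen after its values were seen.

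At S1pr1, too, some regions were higher and others lower in the later libraries. Its promoter region (chr3:115711931-115716847) stood at 17.1, 86.6 and 92.5 across the WT stages, 16.9 in the Erg KO, and 19.3, 76.0 and 114 across the Rescue stages, with a ratio of 5.33 between WT proB and WT pre-proB. The summit also lay elsewhere: 420 to 509 bp upstream of the start in the 3 pre-proB libraries and 130 to 147 bp downstream of it in the 4 later ones. Downstream of the gene, a region 20.7 kb from the start (chr3:115694108-115694627) had no peak in the WT or Erg KO pre-proB library, 12.4 and 33.1 in WT proB and preB, and 4.29, 14.7 and 39.8 across the Rescue stages. In the other direction, the region 12.8 kb upstream (chr3:115727446-115728143) stood at 20.9, 26.4 and 25.7 in WT, Erg KO and Rescue pre-proB, had no peak in WT proB, and stood at 4.16 in WT preB, 4.23 in Rescue proB and 6.4 in Rescue preB. A region 19960 bp upstream, chosen after its values were seen, stood at 72.9 to 86.1 in the pre-proB libraries and 28.8 to 52.2 in the later ones.

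**Figure D5:**
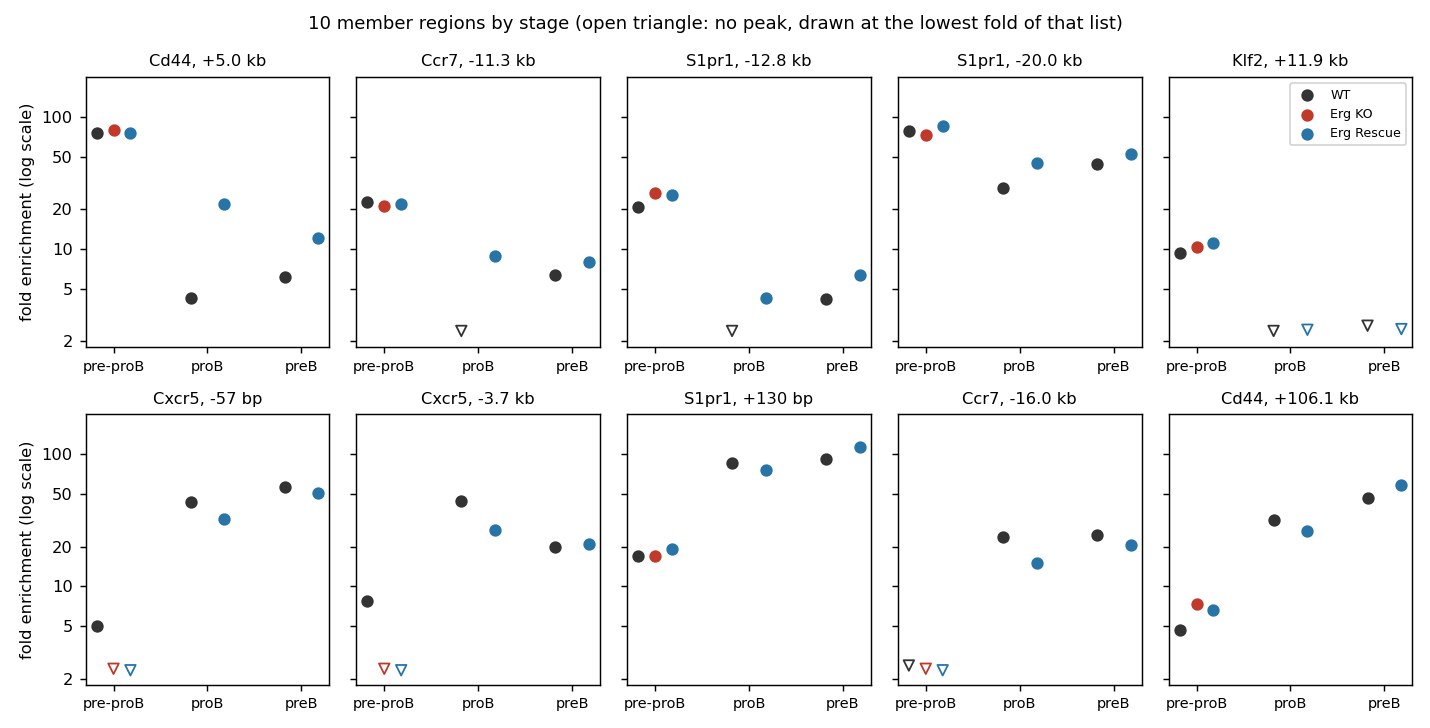
Each panel is 1 member region, the x axis is stage, the y axis is fold enrichment on a log scale, colour is genotype, and an open triangle marks no peak, drawn at the lowest fold enrichment of that list. The upper 5 regions are higher in the 3 pre-proB libraries and the lower 5 in the 4 proB and preB libraries, and at Cd44 +5.0 kb the Rescue proB point (21.8) lies between WT proB (4.25) and the pre-proB points (75.6 to 80.3).

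Of the adhesion genes, Cd44 carried the largest single difference. A region in intron 1, 4.97 kb downstream of the start (chr2:102894619-102898144), had levels of 75.8, 4.25 and 6.14 across the WT stages, 80.3 in the Erg KO, and 75.6, 21.8 and 12.2 across the Rescue stages. It was 17.0 times lower in WT proB than in WT pre-proB, on summits of 390 fragments (352 to 431) and 22 fragments (13.8 to 33.3). Meanwhile the Cd44 promoter, in the same libraries, stood at 27.3 and 37.8. The 3′ untranslated region of Cd44 held a region that went the same way, at 58.9, 11.3 and 23.9 in WT pre-proB, proB and preB, 62.5 in Erg KO and 80.8, 25.8 and 38.4 in the Rescue series, and was chosen after its values were seen. Beyond the 3′ end, a region 106.0 kb from the start (chr2:102794791-102795702) went the opposite way, at 4.65, 31.8 and 46.5 across the WT stages, 7.33 in the Erg KO, and 6.61, 26.1 and 58.4 across the Rescue stages. The Cd44 window thus held regions higher and lower in proB around a promoter open in every library. At Itga4 the 3 higher regions lay upstream of the gene and the 2 lower ones in an intron and beyond the 3′ end. The region 11.3 kb upstream (chr2:79243648-79244673) had a peak only in WT proB, at 10.3 on 55 fragments (41.4 to 71.6), at least 4.31 times above WT pre-proB. The Itga4 promoter summit lay 87 to 176 bp upstream of the start in pre-proB libraries and 676 to 727 bp upstream in later ones.

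Around Klf2, 4 of 8 tested regions were higher in WT proB and all lay upstream, whereas both lower ones lay downstream. The region at 11.9 kb downstream, chosen after its values were seen, stood at 9.3 in WT, 10.3 in Erg KO and 11.1 in Rescue pre-proB and had no peak in the 4 later libraries.

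From proB to preB in WT cells, 14 of 99 member regions were higher and 9 were lower, beside 5.55% higher and 14.1% lower over all regions. No member promoter was called. S1pr1 and Cd44 each had 4 higher regions. The largest higher ratio was 2.58, at the S1pr1 region 20.7 kb downstream, followed by at least 2.55 at Ccr7 11.3 kb upstream and at least 2.46 at a Cxcr4 region 10.3 kb downstream (chr1:128581869-128582324), which stood at 6.14 in WT preB and 4.95 in Rescue preB with no peak elsewhere. The lower regions with the largest ratios were those described above at Itga4 11.3 kb upstream (at least 4.08 times lower), Cxcr4 19.7 kb upstream (4.02 times) and Klf2 7.93 kb upstream (3.63 times).

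Rescue and WT cells were then compared at matched stages. In proB, 9 of 100 member regions were higher and 8 lower in Rescue, beside 9.75% and 10.2% over all regions, so the members did not stand apart from the background in either direction. Cd44 held 5 of the 9 higher regions, led by the intron 1 region (5.1 times) and by a region 13.3 kb upstream (3.77 times, chr2:102913909-102915268). The latter stood at 22.7, 9.97 and 24.1 in WT pre-proB, proB and preB, 23.1 in Erg KO, and 23.9, 37.9 and 33.2 in the Rescue series. Next came Ccr7 11.3 kb upstream, at least 3.68 times higher. The lower regions with the largest ratios were Itga4 11.3 kb upstream (at least 4.25 times lower), Klf2 7.93 kb upstream (2.91 times), and a Cxcr5 intronic region (chr9:44532912-44533410) with a peak of 6.46 in WT proB and none elsewhere (at least 2.66 times). This comparison and both WT stage comparisons share the WT proB library. In preB, 2 of 93 member regions were higher and 2 lower in Rescue, beside 3.8% and 2.65% over all regions. The higher ones were Klf2 2.58 kb upstream, at 4.82 in WT and 10.9 in Rescue preB, and S1pr1 22.5 kb downstream, at 3.29 and 7.43. The lower ones had peaks of 5.26 at Cxcr5 (chr9:44540007-44540218) and 4.82 at S1pr1 (chr3:115711311-115711707) in WT preB and none in Rescue preB.

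Of 52 other genes of the same pathways, 38 had a promoter peak in all 7 libraries and 7 had none in any. No promoter among the 52 was called in Erg KO or in Rescue pre-proB against WT pre-proB, where over all coding genes 0.408% and 0.386% were higher and 0.324% and 0.484% lower. Between WT proB and WT pre-proB 5 were higher and 8 lower, beside 8.72% and 5.3% of all coding promoters. Among 14 chemokine receptors, Ccr1, Ccr2 and Ccr6 were higher and Ccr9, Cxcr3 and Cx3cr1 lower. Cxcr3, a receptor for interferon-induced chemokines, stood at 51.2, 51.3 and 54.7 in the WT, Erg KO and Rescue pre-proB libraries against 13.7 and 5.04 in WT proB and preB. Among 10 egress and position receptors and regulators, 1 was lower, Gpr183, an oxysterol receptor, at 43.4 in WT pre-proB and 14.8 in WT proB. The other sphingosine-1-phosphate receptors were not called: S1pr2 stood at 14.7 and 18.1, S1pr3 at 12.4 and 10.9, and S1pr4 at 23.3 and 22.9 in WT pre-proB and proB, while S1pr5 had a peak only in WT proB, at 2.77. Of 12 integrins and other adhesion genes, Itga6 was higher, at 9.69 and 33.0, and Itgb7 and Itgam were among the lower. Itgb7 encodes a beta chain that pairs with integrin alpha 4, and stood at 19.6 in WT pre-proB and 4.8 in WT proB. Itgb1, which encodes the other beta partner, stood at 25.4 and 50.2 and was not called. Of 12 signalling genes, Rgs13 was higher, with no peak in any pre-proB library and 15.7 in WT proB, and Rgs1 was lower, at 101 and 28.6. None of 4 further Klf genes was called. From WT proB to WT preB 1 of the 52 promoters was higher and 2 were lower, beside 0.58% and 7.06% of all coding promoters. Rescue proB had 1 higher and 1 lower than WT proB, beside 1.42% and 2.69%, and Rescue preB had 3 higher and 1 lower than WT preB, beside 2.31% and 0.458%.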

How the data were processed

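Per the labels, nuclei were tagmented with Tn5 (Nextera), whereas the study's methods describe sonication for the same libraries. Reads were aligned to mm10 with Bowtie2 and peaks were called by the authors with MACS2, 1 list per library. The submitters' processing notes also name Picard and CASAVA 1.8.2. Read depth per library was not recoverable from the lists, and the background pileup was 3.49 to 4.6 fragments. The deposited lists give a fold enrichment (a linear ratio of summit pileup plus 1 to background plus 1), a score, −log10 p and −log10 q values, and the summit position. Fold values below a set limit were checked, and all of these were whole multiples of 1 fragment's worth within 0.05 of a step. Pileups were read from this step, also for the higher values that were not checked. The deposited score equals 10 times the −log10 q and was used only as a rank.

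Overlapping peaks were merged over the 7 lists. Gene models came from GENCODE M21. Calls, ratios and intervals are defined in the results and were computed in Python (version 3.11.15, numpy 2.4.6, pandas 2.3.3, scipy 1.17.1). The members, lists and motifs were chosen with earlier results of these data known. Named regions were the promoters of the members and, in each of 6 comparisons and each direction, the 3 called regions with the largest ratio. Alternatives changed the flank, list length, q threshold, region definition, ratio, centring, level measure, promoter window and the stage of the Rescue libraries.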

Additional observations from a re-analysis of the deposited data

How the results depend on the processing

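Of 147 recomputed counts, 82 stayed within 1.5 times of the value reported and 65 did not. Chaining summits within 300 bp in place of merging peaks, and promoter windows of 500 or 2500 bp, left every count within 1.5 times. Values that moved are given as higher and lower counts. With the gene body alone there were 46 member regions, and counts became 0 and 2 for Erg KO, 1 lower for Rescue pre-proB, 12 and 9 for WT proB, 5 and 4 for WT preB, 3 and 4 for Rescue proB and 0 higher for Rescue preB. With flanks of 50 kb there were 209 regions, with 2 higher for Erg KO, 1 higher for Rescue pre-proB, 40 lower for WT proB, 23 and 18 for WT preB, 19 higher for Rescue proB and 5 higher for Rescue preB. The higher count for WT proB, within 1.5 times of the value reported, was then 53. The excess of higher over lower regions in WT proB was therefore relatively smaller than with flanks of 20 kb, as it was with the gene body alone. With lists of equal length, Erg KO had 0 and 0, Rescue pre-proB 0 lower, WT preB 8 higher, Rescue proB 4 lower and Rescue preB 0 lower. With a −log10 q of at least 10, Erg KO had 0 and 0, Rescue pre-proB 0 lower, WT proB 10 lower, WT preB 6 higher, Rescue proB 5 and 3, and Rescue preB 0 and 0. At a ratio of 3, Erg KO had 0 and 1, Rescue pre-proB 1 lower, WT proB 21 and 6, WT preB 0 and 3, Rescue proB 3 and 1, and Rescue preB 0 and 0. At a ratio of 1.5, Erg KO had 7 higher, Rescue pre-proB 7 and 6, WT preB 24 and 18, Rescue proB 20 and 23, and Rescue preB 8 and 12. Without centring, Rescue preB had 1 lower. By score percentile (difference of at least 20), Erg KO had 7 higher, Rescue pre-proB 12 higher, WT preB 17 lower and Rescue preB 8 higher. With Rescue stages read from the source names, counts were 34 and 11 for pre-proB, 18 and 40 for proB, and 6 and 6 for preB. No library could be left out and no paired analysis was possible because each group held 1 library. Depth limits the pre-proB differences, since the WT levels at the 4 regions lower in Erg KO rested on 25 to 39 fragments and peaks under 10 to 12 fragments were not called.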

Other observations

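The promoter levels of other coding genes were compared with those of the members over the 7 libraries, as a description with no test. Cxcr4, Itga4, Cd44 and Klf2 varied by less than 2 times and were given no neighbours. The genes most like S1pr1 were Dmtn, Tulp3 and Cr2, each with a Pearson r of 0.999. Cr2 encodes complement receptor 2 of mature B cells. The genes most like Cxcr5 were Sapcd1 (r = 0.999), Cdh17 (0.998) and Dpf3 (0.998), and those most like Ccr7 were Cplx3 (0.984), 2200002D01Rik (0.982) and Olfr15 (0.982). Of 4458 coding genes that varied by at least 2 times, 1126 had an r over 0.9 with S1pr1 and 1087 with Cxcr5 but 110 with Ccr7, so a high r with either of the first pair is common among these genes, and all values share the same 7 libraries and their 3 stages.

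The member regions higher in WT proB than in WT pre-proB held an EBF1 match in 4 of 39 (10.3%), beside 20.2% of the 22096 regions called the same way over the genome and 7.6% of all regions. Of the Cxcr5 regions with no peak in either Erg-deficient pre-proB library, 2 had a peak in WT pre-proB. These 2 held no ETS and no EBF1 match within 150 bp of the summit. Some Cxcr5 regions with no peak in any pre-proB library did hold an ETS match, among them the intronic region chr9:44532912-44533410. The Cxcr5 region in the 3′ untranslated region held 1 ETS and 2 EBF1 matches.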
